A study of Mus musculus with 6 samples.

Results

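Focal adhesions are the sites where a cell grips the matrix. Integrins, receptors made of an alpha and a beta chain, bind matrix proteins outside the cell, and talin, vinculin, zyxin and other linkers tie their tails to actin filaments inside it. In the myoblast, this link carries signals for spreading, migration and fusion, and later the load on the muscle fibre. The genes described here are 3 integrin genes (Itgb1, Itga4 and Itga7), 2 linker genes (Vcl, vinculin, and Zyx, zyxin) and the genes that face them on the opposite DNA strand (Epha1 faces Zyx, Cerkl faces Itga4, Mettl7b faces Itga7). They were chosen by name from genes whose counts, or whose neighbour's counts, had already been seen in this experiment, with Zyx and Cerkl known to be among the lower ones after treatment. Any further gene whose interval overlaps that of Vcl was added, which brought in 1 gene, Ap3m1. All 8 listed genes were found, so 9 of the 22753 gene identifiers in the table are described.

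RNA came from C2C12, a line of mouse myoblasts able to become muscle or bone-forming cells, grown in medium with 10% fetal bovine serum. The treated group held 3 samples kept for 2 days in 10 µM of a screening hit, a dimethyl-substituted quinolinone that carries a phenyl-imidazolyl group, named the compound here. The DMSO group held 3 samples kept for 2 days in the solvent, at 1% of the medium. The solvent level of the compound samples is not given in the labels. C2C12 is an established line, so all samples share 1 genetic background. The labels do not say that replicates were separate cultures, so errors and p-values reflect only how these samples vary, possibly for technical reasons.

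The members sit in 4 tail-to-tail pairs, apart from Itgb1. Its exons overlapped no exon on the opposite strand in the GENCODE M21 annotation of mm10. Zyx (chr6:42349828-42360146, plus strand) and Epha1 (chr6:42358487-42373268, minus strand) share 236 bases of exon, between 42358487 and 42359091. Of these, 160 are coding bases of Epha1 and none are coding bases of Zyx. Itga4 (chr2:79255426-79333123, plus) and Cerkl (chr2:79330543-79456785, minus) share 1124 exon bases, of which 79 code for Cerkl and none for Itga4. Vcl (chr14:20929433-21033673, plus) and Ap3m1 (chr14:21031442-21052508, minus) have the longest shared stretch of the 4 pairs, 2090 exon bases. That is 25.5% of the annotated exon length of Vcl and 29.8% of that of Ap3m1. Itga7 (chr10:128933813-128958277, plus) and Mettl7b (chr10:128958277-128960988, minus) barely touch: 9 exon bases in GENCODE M21 and 1 base in the table's own intervals. Itgb1 lies at chr8:128685654-128733200 on the plus strand. The labels name a TruSeq RNA kit and also call the library stranded. The strand setting of the counting is not given in the sources used here, so the reads of facing genes cannot be told apart. All values below are therefore counts filed under a gene name.

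**Figure D1:**
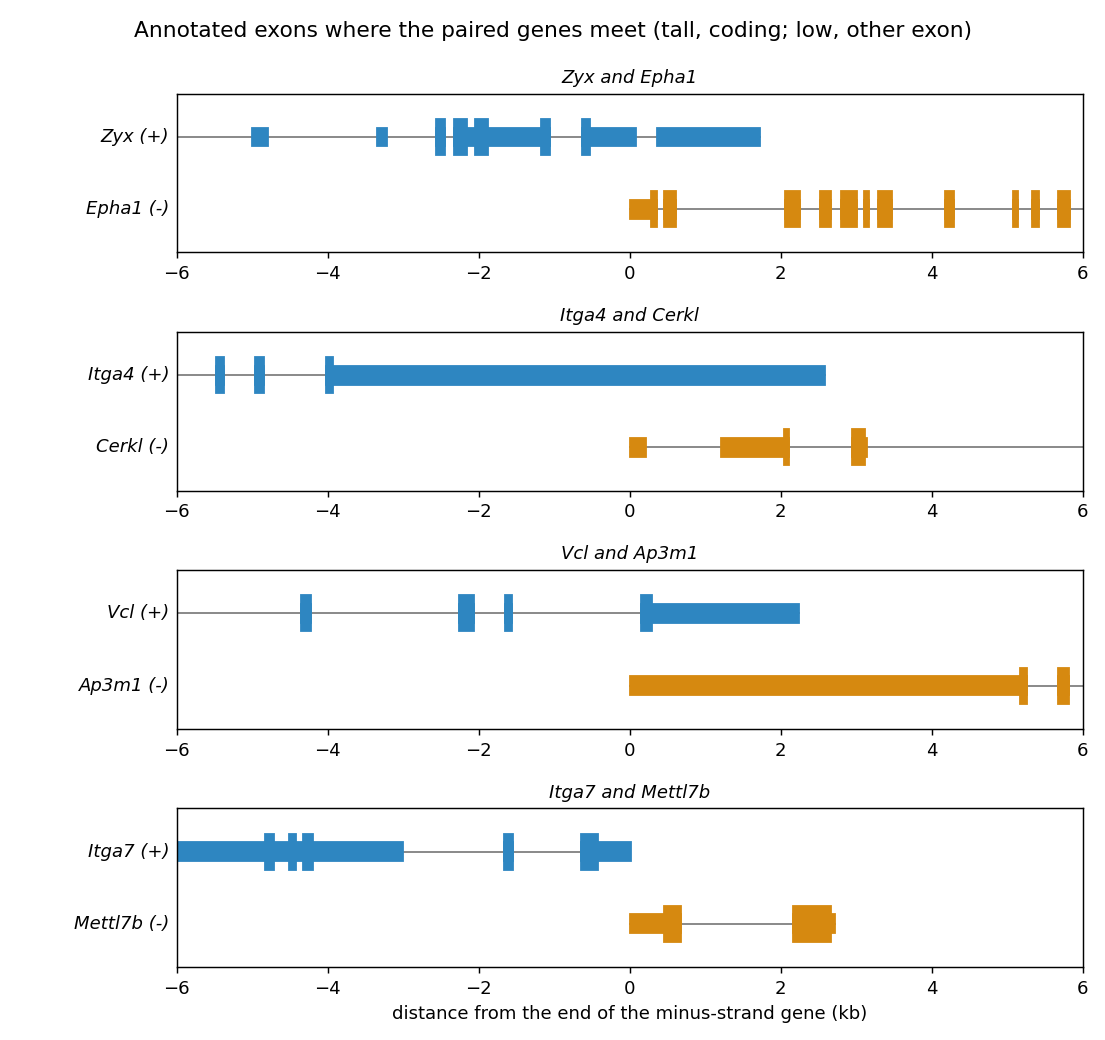
Annotated exons (GENCODE M21) of the 4 facing pairs, with distance in kb from the end of the minus-strand gene on the x axis; tall boxes are coding, low boxes other exon, blue marks the plus strand and orange the minus strand, and genes running past 6 kb are clipped. The shared exon stretch is 2090 bases for Vcl and Ap3m1, 1124 for Itga4 and Cerkl, 236 for Zyx and Epha1 and 9 for Itga7 and Mettl7b.

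The stretches where a coding end lies against the facing gene are shown by the last 30 coding bases of Vcl, Cerkl and Epha1, read 5′ to 3′ on each gene's own strand from the GENCODE M21 transcripts. Capitals mark the stop codon. All 30 bases of the Vcl end (chr14:21031704-21031733) lie inside an Ap3m1 exon, and all 30 of the Cerkl end (chr2:79332575-79332604) inside an Itga4 exon. None of the 30 bases of the Epha1 end (chr6:42358768-42358797) lie inside a Zyx exon, since they fall in the gap between exons of Zyx.
Vcl: tgggtcagaaagactccctggtaccagTAG
Cerkl: gattgcaaagtagcatgtgattgcataTGA
Epha1: ctctgcagtattcaaggatttaaggacTGA

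Promoters are shown for Zyx, Epha1 and Cerkl, the members with lower counts in treated cells, and for Vcl, a textbook target of serum response factor (SRF), the actin-regulated transcription factor. RefSeq (GRCm38.p6) held the window of 250 bases before to 50 after the start site for 8 of the 9 genes; Itga7 is the other one. Both strands were searched for the SRF CArG box, the TEAD site GGAATG, the E-box CANNTG, the GC box GGGCGG and the AP-1 site TGANTCA, and matches stand in capitals, joined where matches overlap. Windows lie at chr6:42349578-42349877 (plus) for Zyx, chr6:42373219-42373518 (minus) for Epha1, chr2:79428939-79429238 (minus) for Cerkl and chr14:20929148-20929447 (plus) for Vcl.
Zyx: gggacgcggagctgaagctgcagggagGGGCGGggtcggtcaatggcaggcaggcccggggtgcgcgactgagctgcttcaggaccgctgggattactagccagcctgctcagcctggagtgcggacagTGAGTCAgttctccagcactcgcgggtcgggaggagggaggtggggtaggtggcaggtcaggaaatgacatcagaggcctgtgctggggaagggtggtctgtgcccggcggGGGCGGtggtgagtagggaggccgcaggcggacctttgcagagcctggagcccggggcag
Epha1: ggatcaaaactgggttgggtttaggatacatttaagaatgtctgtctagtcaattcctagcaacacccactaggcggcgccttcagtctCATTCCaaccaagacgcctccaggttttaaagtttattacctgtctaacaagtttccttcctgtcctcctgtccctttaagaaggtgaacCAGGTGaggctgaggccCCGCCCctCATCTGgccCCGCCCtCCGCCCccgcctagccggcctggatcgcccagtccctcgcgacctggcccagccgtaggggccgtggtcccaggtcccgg
Cerkl: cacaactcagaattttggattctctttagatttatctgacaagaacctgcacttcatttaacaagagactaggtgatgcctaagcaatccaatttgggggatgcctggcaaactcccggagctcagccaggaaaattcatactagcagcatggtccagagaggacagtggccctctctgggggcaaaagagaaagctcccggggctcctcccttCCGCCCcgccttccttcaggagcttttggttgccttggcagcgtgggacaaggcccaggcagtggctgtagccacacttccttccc
Vcl: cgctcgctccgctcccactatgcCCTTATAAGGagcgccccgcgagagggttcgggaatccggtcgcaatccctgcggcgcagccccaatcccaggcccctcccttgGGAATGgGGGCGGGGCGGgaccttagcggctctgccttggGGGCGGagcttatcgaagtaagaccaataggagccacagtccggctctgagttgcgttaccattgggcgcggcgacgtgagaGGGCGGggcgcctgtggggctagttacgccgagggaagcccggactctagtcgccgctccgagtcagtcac

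Among these windows, the Vcl window held the CArG box, 227 bases before the start site, as 1.63% of 32851 mouse promoter windows of the same length do. It also held 1 TEAD site, found in 14.7% of all windows, and 4 GC boxes, found in 35.7%. The Zyx window held 1 AP-1 site (7.81% of all windows) and 2 GC boxes. The Epha1 window held 1 TEAD site, 2 E-boxes (72.3% of all windows) and 3 GC boxes, and the Cerkl window held 1 GC box and no other match. None of these motif kinds was found in all 3 of Zyx, Epha1 and Cerkl except the GC box. Of the windows not printed, Itgb1 held 1 TEAD site and 1 GC box, Itga4 1 E-box and 1 GC box, Ap3m1 1 E-box and 4 GC boxes, and Mettl7b 2 E-boxes. A match describes letters in a window and does not show that a factor binds there.

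Counts in the table summed to 493406 to 542649 per library in the compound group and 566348 to 952813 in the DMSO group. DMSO replicate 3, the library with the highest total, stood apart from DMSO replicates 1 and 2 (chi-square per degree of freedom 10.5 and 9.60, against 1.88 between replicates 1 and 2), so the fold changes of the 8 fitted members are also given without it. Across the table, 23.5% of the identifiers have exons facing another gene, and these held 91.8% of all counts. Actb and Gapdh, among the most abundant messages of most cells, averaged only 8.17 and 20.7 counts per library. In the annotation Iffo1 faces Gapdh, and no exon faces those of Actb. Counts under a gene name may not come from that gene's own strand, which was not tested. The labelled cell type could be checked only in part. Among the myoblast markers with enough counts to test, Msc fell (log2 fold change -1.21, adjusted p = 0.0467 in edgeR), Des rose (0.99, adjusted p = 0.0160 in edgeR), and Pax7 did not pass (-0.27, adjusted p = 0.701 in edgeR). Msc is faced by Gm9947 and Des by Gm15179, while no exon faces those of Pax7. Myod1, the defining factor, had 2, 3 and 3 counts in the compound libraries and 6, 6 and 25 in the DMSO libraries. Of 8 osteoblast markers 4 were at 0 in every library (Bglap, Dlx5, Ibsp and Sp7), and the list summed to 46.1 to 66.9 CPM (counts scaled to the library total) in the compound group and 53.6 to 86.5 in the DMSO group. Adipocyte markers summed to at most 8.11 in the compound group and 8.37 in the DMSO group, and endothelial markers to at most 5.82 in the compound group and 8.37 in the DMSO group. Macrophage markers summed to 359 to 463 in the compound group and 479 to 667 in the DMSO group, nearly all under Csf1r, which is faced by Hmgxb3; Lyz2 was at 0. The part of these markers in the results below was not tested.

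Counts under 3 member genes were lower in every compound library than in every DMSO library: Zyx, Cerkl and Epha1. Scaled to library size (CPM), Ap3m1 was higher in every compound library, while its raw counts overlapped between the groups. For the integrin genes themselves and for Vcl and Mettl7b the groups overlapped. Of the 9 genes, 8 had enough counts to enter the fit over all genes, and Itga4 did not. Among the 8, 1 was past the threshold of an adjusted p of 0.05 as higher (background over all 2440 tested genes 7.50%) and 3 as lower (background 10.5%), together 4 (background 18.0%). The libraries of the groups did not overlap for 4 of the 8. The background for this was 36.4% in either direction, 17.2% with the compound higher and 19.2% with the compound lower. With no filter on low counts, 29.9% of the genes past the threshold were higher, against 41.8% with the filter, and the median of all genes moved by -0.10 (log2). Because the members were chosen with this comparison in view, these counts are a description, and no p-value is given for a member. The median log2 fold change was 0.14 over the 8 and 0.02 over all tested genes. In bulk RNA, fewer cells of a type and less RNA per cell cannot be told apart.

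**Figure D2:**
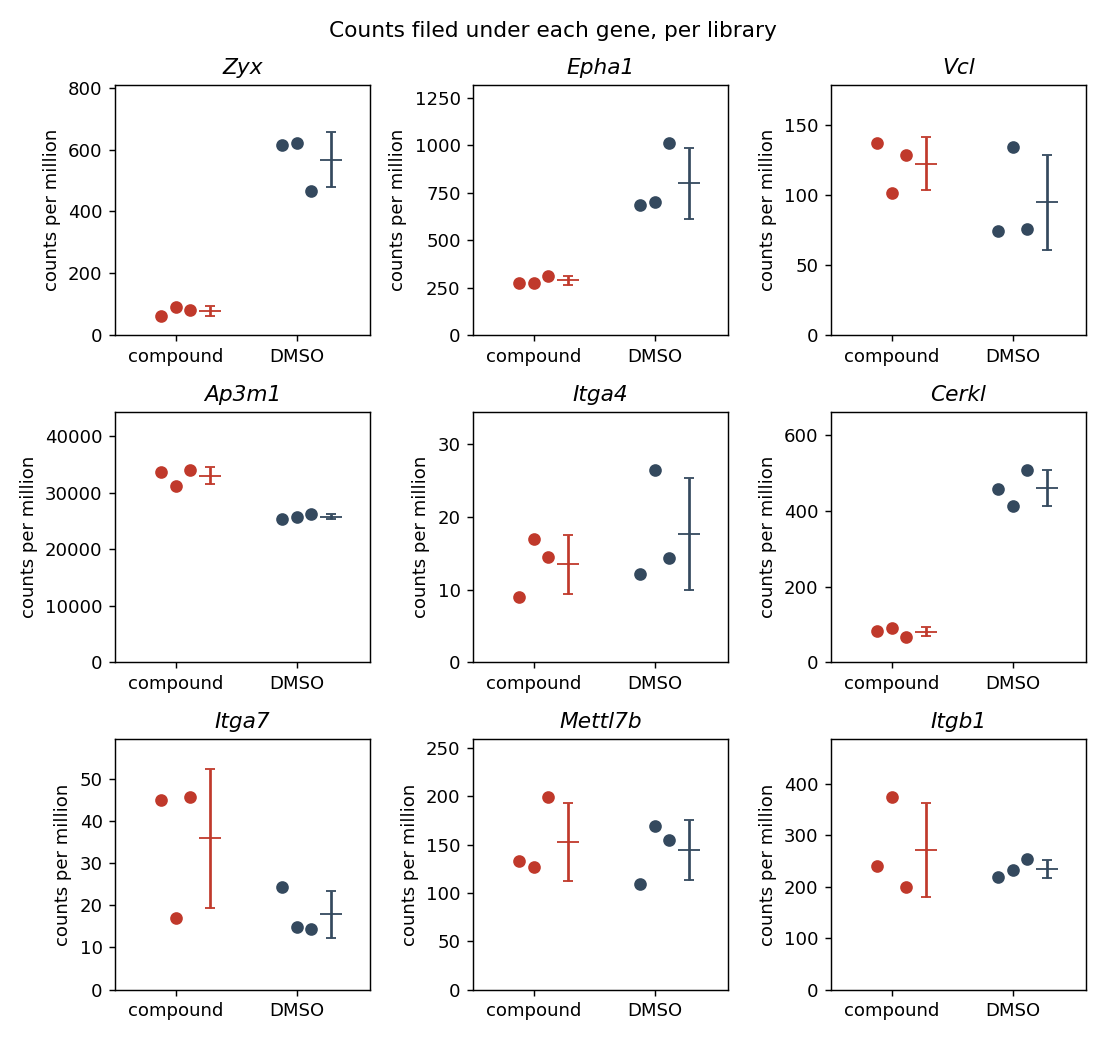
CPM (counts scaled to TMM library sizes) filed under each of the 9 genes, with compound libraries in red on the left and DMSO libraries in dark blue on the right; points are libraries, and the bar is the mean ± SD with n = 3. Zyx, Epha1 and Cerkl are lower and Ap3m1 higher in all compound libraries, and the other genes overlap.

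Of the receptors, Itgb1 encodes the beta chain that pairs with both alpha chains below and carries the tail that talin binds. Its counts were 107, 177 and 96 in compound replicates 1 to 3 and 126, 141 and 264 in DMSO replicates 1 to 3. After scaling, compound replicate 2 was the highest of the 6 libraries and compound replicate 3 the lowest. The level was 272 ± 91.6 CPM in the compound group and 235 ± 17.5 CPM in the DMSO group (SD, n = 3 each). The log2 fold change was 0.20 ± 0.23 (SE), smaller than its own error, and it was -0.11 without compound replicate 2 and 0.26 without DMSO replicate 3. No annotated exon faces those of Itgb1, but whether its counts come from its own strand was not tested.

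Itga7 encodes the alpha chain of the laminin receptor of skeletal muscle. It had 20, 8 and 22 counts in compound replicates 1 to 3 and 14, 9 and 15 in DMSO replicates 1 to 3. Compound replicates 1 and 3 stood above all DMSO libraries, and compound replicate 2 lay among them. Levels were 35.9 ± 16.4 CPM in the compound group and 17.9 ± 5.57 CPM in the DMSO group, with a log2 fold change of 1.02 ± 0.47 (SE). It is the gene with the fewest counts among the 8 that were fitted (mean count 14.7), and its fold change ran from 0.79 to 1.36 as single libraries were left out, with 0.86 without DMSO replicate 3.

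Mettl7b, which faces Itga7 over the 9 bases, encodes a methyltransferase-like protein, shown in human to methylate thiols. It had 59, 60 and 96 counts in the compound libraries and 63, 102 and 161 in the DMSO libraries. These gave 153 ± 40.1 CPM in the compound group and 144 ± 31.1 CPM in the DMSO group, and a log2 fold change of 0.08 ± 0.24 (SE), or 0.13 without DMSO replicate 3. The groups overlapped. Per length of exon, counts under Mettl7b stood far above those under Itga7 in both groups, at 124 ± 32.6 against 4.43 ± 2.03 CPM per kb in the compound group and at 117 ± 25.3 against 2.21 ± 0.69 CPM per kb in the DMSO group.

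Itga4 encodes the alpha chain of an integrin that binds fibronectin and the vascular adhesion molecule VCAM. It was the sparsest member, with 4, 8 and 7 counts in the compound libraries and 7, 16 and 15 in the DMSO libraries. Counts of this size leave a level of 13.5 ± 4.06 CPM in the compound group and 17.7 ± 7.71 CPM in the DMSO group, and the groups overlapped. With so few counts, a difference under Itga4 was not tested.

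Cerkl, on the other strand, encodes a ceramide kinase-like protein, known in human from inherited retinal dystrophy. Its counts were 37, 43 and 33 in the compound libraries and 264, 250 and 529 in the DMSO libraries. Every compound library lay below every DMSO library, by a wide margin. The level was 80.9 ± 11.4 CPM in the compound group and 460 ± 47.1 CPM in the DMSO group, 5.68-fold lower, with a log2 fold change of -2.51 ± 0.20 (SE), or -2.43 without DMSO replicate 3. In rank it was number 23 from the lowest fold change among the 2440 tested genes.

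Of the linkers, vinculin strengthens the link between talin and actin when force is applied. Vcl had 61, 48 and 62 counts in the compound libraries and 43, 81 and 79 in the DMSO libraries. Scaled, DMSO replicate 2 (134 CPM) lay within the compound range, while DMSO replicates 1 and 3 lay below it. Levels were 123 ± 18.7 CPM in the compound group and 94.8 ± 34.0 CPM in the DMSO group, with a log2 fold change of 0.38 ± 0.27 (SE). It was 0.67 without DMSO replicate 2 and 0.22 without DMSO replicate 3.

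Ap3m1, facing Vcl, encodes the medium subunit of the AP-3 adaptor complex, which sorts cargo to lysosomes and related organelles. It was the third most counted of all tested genes. It had 14974, 14768 and 16402 counts in the compound libraries and 14633, 15514 and 27338 in the DMSO libraries. The scaled values were tight within each group and did not overlap, at 32994 ± 1525 CPM in the compound group and 25764 ± 441 CPM in the DMSO group. The log2 fold change was 0.36 ± 0.08 (SE), a 1.28-fold difference, and 0.36 without DMSO replicate 3 as well. It is a small shift measured on many counts, and it was 0.26 in the fit over all 12548 genes with any count.

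Zyxin is a LIM-domain protein that moves to focal adhesions and stress fibres under tension and recruits VASP, an actin regulator. Zyx had 28, 44 and 39 counts in the compound libraries and 355, 376 and 485 in the DMSO libraries. The highest compound library (93.1 CPM) was far under the lowest DMSO library (466 CPM, replicate 3). The level was 79.0 ± 15.1 CPM in the compound group and 568 ± 88.6 CPM in the DMSO group, 7.19-fold lower as a ratio of means. The log2 fold change was -2.84 ± 0.22 (SE), and -2.97 without DMSO replicate 3. In rank it was number 20 from the lowest of the 2440.

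Epha1, facing Zyx, encodes a receptor tyrosine kinase for ephrins held on neighbouring cells. It had 123, 130 and 151 counts in the compound libraries and 395, 423 and 1055 in the DMSO libraries. All compound libraries were lower, and DMSO replicate 3 was the highest library, at 1013 CPM beside 685 and 700 CPM in DMSO replicates 1 and 2. Levels were 288 ± 21.6 CPM in the compound group and 799 ± 185 CPM in the DMSO group, 2.77-fold lower. The log2 fold change was -1.47 ± 0.19 (SE), and -1.27 without DMSO replicate 3. Both gene names of the Zyx locus thus held fewer scaled counts in treated cells, with the larger fold under Zyx.

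**Figure D3:**
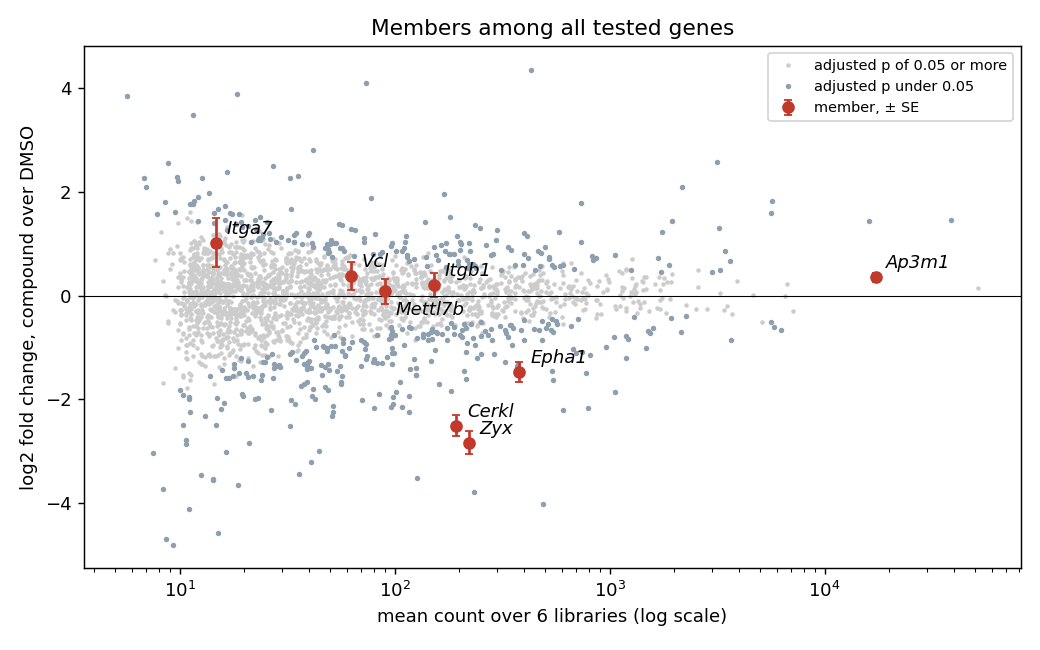
Log2 fold change (compound over DMSO, y axis) against the mean count over 6 libraries (x axis, log scale) for all 2440 tested genes; grey-blue points have an adjusted p under 0.05, and red points are the 8 fitted members with their SE. Zyx (-2.84), Cerkl (-2.51) and Epha1 (-1.47) lie low, and Ap3m1 (0.36) lies far to the right.

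The authors' deposited table gave log2 fold changes of -2.74 for Zyx, -2.47 for Cerkl, -1.45 for Epha1 and 0.34 for Ap3m1. For Itga7, Vcl, Itgb1 and Mettl7b the authors' deposited table gave 0.84, 0.33, 0.18 and 0.06, and for Itga4, which was too sparse to be fitted here, -0.31 with a standard error of 0.47.

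Counts under different genes were compared per kb of annotated exon. Which part of the exons the counts came from is not known here, so the order holds only for that length. In the compound group the order was Ap3m1 (4703 CPM per kb), Mettl7b (124), Epha1 (73.4), Itgb1 (66.5), Cerkl (15.3), Vcl (14.96), Zyx (14.7), Itga7 (4.43) and Itga4 (0.96). There the libraries of Epha1 and Itgb1 overlapped, as did those of Cerkl and Vcl and those of Vcl and Zyx. In the DMSO group it was Ap3m1 (3673 CPM per kb), Epha1 (203), Mettl7b (117), Zyx (105), Cerkl (87.0), Itgb1 (57.6), Vcl (11.6), Itga7 (2.21) and Itga4 (1.26). There Mettl7b and Zyx overlapped, then Zyx and Cerkl, and Itga7 and Itga4. Zyx stood 3 places lower in the compound order, next to Vcl, and Itgb1 stood above Cerkl and Zyx rather than below them.

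Since reads in the shared stretches cannot be assigned to a strand here, the counts of each facing pair were also added. The Zyx and Epha1 locus held 151, 174 and 190 counts in the compound libraries and 750, 799 and 1540 in the DMSO libraries. This was 367 ± 27.1 CPM in the compound group and 1367 ± 97.0 CPM in the DMSO group, a log2 ratio of -1.90, and the groups did not overlap. The Itga4 and Cerkl locus held 94.4 ± 12.6 CPM in the compound group and 477 ± 41.6 CPM in the DMSO group, a log2 ratio of -2.34. The Vcl and Ap3m1 locus, dominated by Ap3m1, held 33116 ± 1542 CPM in the compound group and 25859 ± 437 CPM in the DMSO group (log2 ratio 0.36). The Itga7 and Mettl7b locus held 189 ± 51.4 CPM in the compound group and 162 ± 25.8 CPM in the DMSO group (log2 ratio 0.22), and there the groups overlapped. Each sum had the direction of its more counted gene, which holds most of its counts, so the sums are not a separate check.

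The same counts were also expressed as the share of each pair filed under its plus-strand gene. Zyx held 18.5%, 25.3% and 20.5% of the counts of its locus in compound replicates 1 to 3 and 47.3%, 47.1% and 31.5% in DMSO replicates 1 to 3. The Wilson 95% interval of the highest compound share reached 32.2% and overlapped that of DMSO replicate 3, which began at 29.2%; those of DMSO replicates 1 and 2 began at 43.8% and 43.6%. Itga4 held 9.76%, 15.7% and 17.5% of its locus in the compound libraries and 2.58%, 6.02% and 2.76% in the DMSO libraries, on 4 to 16 counts each. For Vcl the share was 0.32% to 0.41% in the compound libraries and 0.29% to 0.52% in the DMSO libraries, and for Itga7 11.8% to 25.3% in the compound libraries and 8.11% to 18.2% in the DMSO libraries. In the Vcl and Itga7 pairs the groups overlapped. The Itga4 share was higher in the compound group, while its own level was 13.5 CPM there and 17.7 CPM in the DMSO group. The Wilson intervals cover counting error only.

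**Figure D4:**
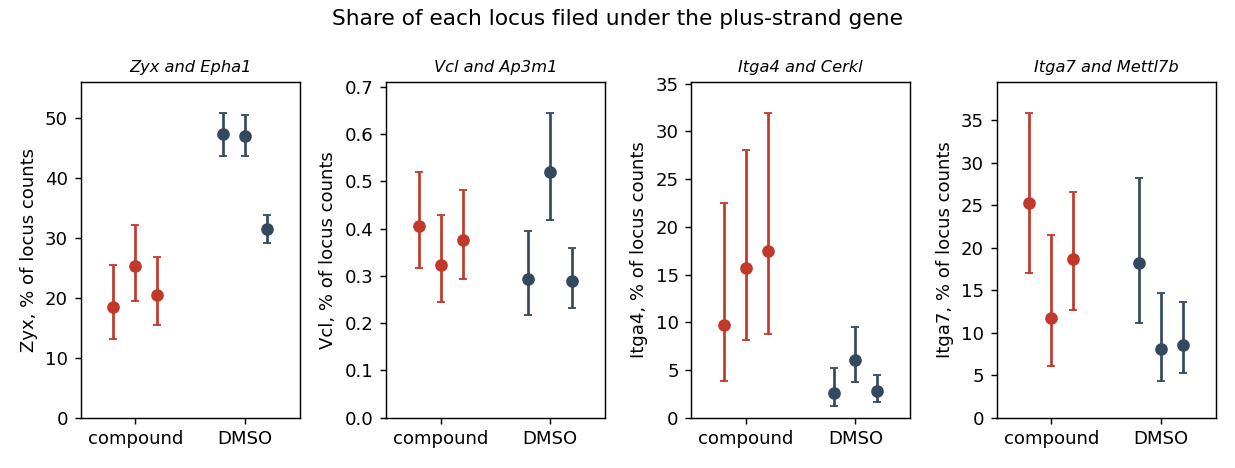
Share of the counts of each facing pair that was filed under the plus-strand gene (y axis, percent), per library, with compound libraries in red on the left and DMSO libraries in dark blue on the right; bars are Wilson 95% intervals. The Zyx share is 18.5% to 25.3% with the compound and 31.5% to 47.3% in DMSO.

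Genes with the most similar course over the 6 libraries were named by the Pearson correlation of log2 CPM among tested genes outside the member's locus, if they averaged at least 50 counts. All points share libraries, scaling and the split into groups, so these values are a description. For Zyx they were Iqck (r = 0.998) and Rabep2 (0.991). For Cerkl they were Preb (0.998), Noc4l (0.996) and Bbip1 (0.993), and for Epha1 Nelfa (0.994), Ocel1 (0.994) and Ccdc24 (0.989). For Ap3m1 they were Mcmdc2 (0.991), Gpr44 (0.990) and Tmem255a (0.989). The members whose groups overlapped had lower best values: Pcbp2 (0.939), Farp2 (0.908) and Cenpq (0.899) for Vcl, Trmt2a (0.917), Rpl18 (0.890) and Tepp (0.850) for Mettl7b, and Rell2 (0.912), Acin1 (0.871) and Gapdhs (0.864) for Itgb1.

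The gene lists drawn up around the members gave few testable counts. The 9 lists cover adhesion and actin genes and also genes listed beside the facing members Epha1, Cerkl and Mettl7b. Of 279 genes in 9 lists, 271 were in the table, 32 of them had no count in any library and 44 could be tested. Of the 44, 3 rose and 2 fell in edgeR's quasi-likelihood test, 11.4% against 18.0% of all tested genes, and their median log2 fold change was -0.01 against 0.02. No member is counted here.

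Of 23 other integrin subunit genes 2 could be tested and neither passed in edgeR, DESeq2 or limma-voom, with 0 at an unadjusted p under 0.05 in edgeR. Itga2b, the platelet alpha chain, had a log2 fold change of -0.65 ± 0.61 and Itgad, a leukocyte alpha chain, of -0.41 ± 0.46 (SE). Without compound replicate 1, in which it had 23 counts against 3 and 3 in compound replicates 2 and 3, Itga2b passed as lower (-2.35, adjusted p = 0.0209 in edgeR). Of 54 adaptor and actin linker genes 9 were tested, and 1 fell: Tns3, a tensin, named after its value was seen. It stood at 12.3 ± 5.83 CPM in the compound group and 47.7 ± 14.4 CPM in the DMSO group (log2 fold change -1.93 ± 0.46, adjusted p = 0.00938 in edgeR), and just missed the threshold without compound replicate 2 (adjusted p = 0.0501). The most counted linkers, Ilk, the integrin-linked kinase, and Tln1, talin, the integrin activator, stood at -0.16 ± 0.19 and 0.51 ± 0.27 (log2, SE).

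Of 50 signalling genes 7 were tested and none passed in edgeR, DESeq2 or limma-voom, with 1 at an unadjusted p under 0.05 in edgeR. The most counted, Arhgap26, a GTPase-activating gene, and Rap1b, a small GTPase of integrin activation, stood at -0.49 ± 0.26 and -0.21 ± 0.27 (log2, SE). Of 42 matrix ligand genes 6 were tested and 1 rose: Ctgf, a matricellular growth factor that binds integrins. It stood at 67.1 ± 6.85 CPM in the compound group and 29.6 ± 8.47 CPM in the DMSO group (log2 fold change 1.21 ± 0.34, adjusted p = 0.0219 in edgeR). The call was lost with no filter on low counts and without any single compound library or DMSO replicate 1 (adjusted p up to 0.0865).

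Of 32 membrane partner genes 8 were tested and 1 rose: Itgb1bp1, whose product binds the tail of the Itgb1 protein and restrains its activation. It stood at 144 ± 28.1 CPM in the compound group and 54.0 ± 11.4 CPM in the DMSO group, with a log2 fold change of 1.39 ± 0.26 (adjusted p = 0.00162 in edgeR). All compound libraries (113 to 166 CPM) lay above all DMSO libraries (46.8 to 67.2 CPM). Its exons face those of Asap2, a GTPase-activating gene of focal adhesions, over 402 bases, and Asap2 stood at 0.19 ± 0.29 (log2, SE). The exons of Itgb1bp1 also face those of Cpsf3.

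Of 21 Eph receptor and ephrin genes, the family of Epha1, none could be tested, and 11 had no count in any library. Among 13 ceramide and sphingosine genes, relatives of Cerkl in function, 4 were tested and 1 fell: Sphk2, a sphingosine kinase, stood at 224 ± 59.1 CPM in the compound group and 517 ± 16.3 CPM in the DMSO group (log2 fold change -1.20 ± 0.20, adjusted p = 0.000723 in edgeR). Sphk2 faces Dbp and Rpl18, which stood at 0.46 ± 0.44 and 0.06 ± 0.21 (log2, SE). Of 8 genes listed beside Mettl7b, 1 was tested: Mettl3, an RNA methyltransferase (log2 fold change 0.26 ± 0.17). It did not pass in edgeR, unadjusted p included, nor in DESeq2 or limma-voom. Of 36 SRF and actin genes 7 were tested and 1 rose, Tpm2, beta-tropomyosin, at 90.3 ± 22.9 CPM in the compound group and 40.3 ± 12.5 CPM in the DMSO group (log2 fold change 1.20 ± 0.33, adjusted p = 0.0199 in edgeR). This call was lost without compound replicate 1 or 2 (adjusted p up to 0.106). Over the lists together, 1 rose without compound replicate 1 and 1 fell without compound replicate 2, and with DMSO replicate 3 left out 4 rose and 4 fell. With a mean count of at least 50, 1 rose.

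As with the members, genes facing the genes of all these lists were looked up, a step added after the data were seen. Some of them face genes listed beside Cerkl or Mettl7b rather than adhesion genes. There were 33 such rows, 23 of them testable, and 2 rose and 5 fell (edgeR adjusted p from 5.25e-05 to 0.0136), 30.4% against 18.0% of all tested genes. The difference between these shares was not tested. Facing Ilk, Taf10, a subunit of the general transcription factor TFIID, fell by 0.65 on the log2 scale. It stood at 7743 ± 78.3 CPM in the compound group and 12185 ± 352 CPM in the DMSO group, over a shared exon stretch of 2106 bases. Rrp8, a ribosomal RNA processing gene that also faces Ilk, fell by 0.85. Chid1, facing the tetraspanin gene Tspan4, fell by 0.78, and 2700060E02Rik, facing the nidogen gene Nid2, fell by 1.45. Gm9905, facing Mettl9, fell by 0.67. The risers were Gpr17, facing the LIM adaptor gene Lims2 (log2 fold change 1.27 ± 0.16), and Itgb1bp1, facing Asap2. Ilk, Tspan4 and Asap2 themselves did not pass (Tspan4 stood at 0.41), and Lims2, Nid2 and Mettl9 were not tested. A facing row could thus pass where the listed gene did not. The reverse also occurred: Sphk2 passed, while Dbp and Rpl18, which face it, did not. Itgb1bp1 is itself a listed gene and is counted in both sets. Without compound replicate 1 or 2, 3 of the facing rows were lower rather than 5.

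**Figure D5:**
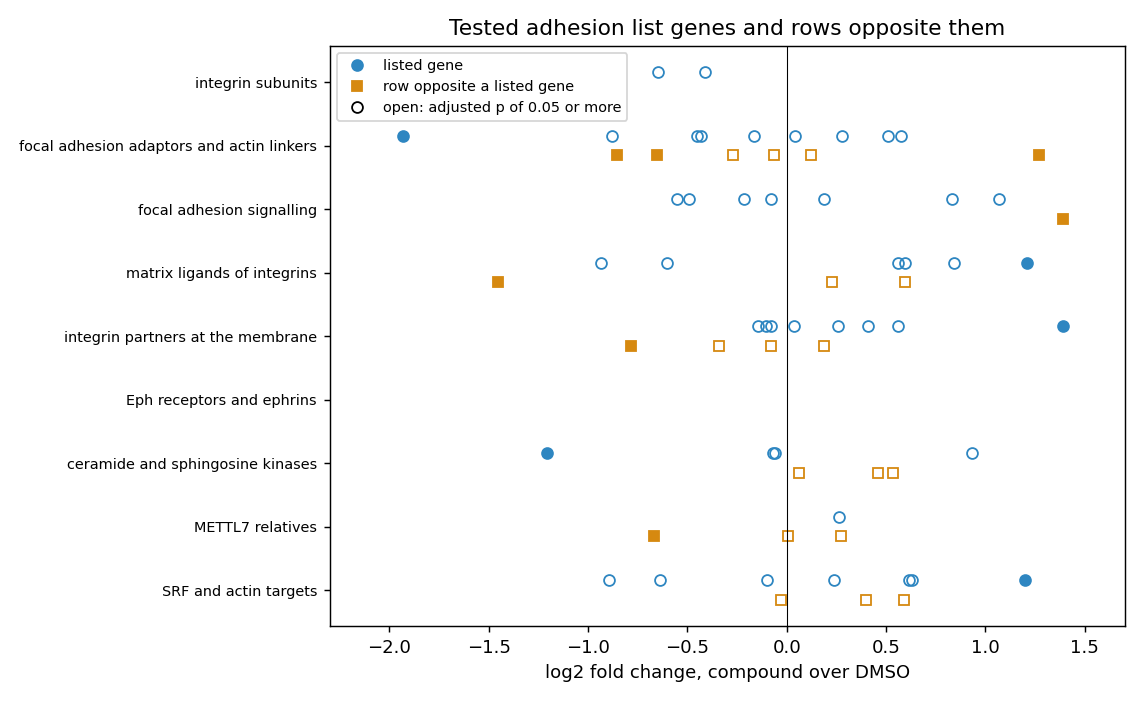
Log2 fold change (compound over DMSO, x axis) of the 44 tested genes of the lists, by list (blue circles). Orange squares are the 23 tested rows facing a listed gene. Filled symbols have an adjusted p under 0.05, and a facing row is drawn in each list that holds its partner. Filled circles are Tns3 and Sphk2 on the left and Ctgf, Itgb1bp1 and Tpm2 on the right.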

How the data were processed

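The authors deposited 1 table of raw read counts for 24725 rows, or 22753 gene identifiers after repeated ones with equal counts were dropped. STAR 2.3.0e, HTSeq 0.6.0 and mm10 are named in the submitters' processing notes, without roles; which annotation release and strand setting were used is not stated in the sources used here. The deposited normalised signal, Wald score and p-values were not used. The log2 fold changes of the authors are quoted where named. Facing genes came from GENCODE M21, which held 96.0% of the identifiers.

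Counts of 6 libraries were fitted with edgeR 4.0.16 (R 4.3.3): TMM, filterByExpr, quasi-likelihood F test, two-sided, Benjamini-Hochberg adjustment over 2440 genes, threshold 0.05. Levels are CPM of TMM library sizes; SE is the log2 fold change divided by the root of F. The steps were tested on simulated counts. Members, gene lists and tests were chosen with earlier results of these data known. List genes were named if past the threshold with a mean count of at least 20 (up to 4 a list), else the 2 most counted; 3 genes a member were named by likeness, leaving out predicted names; some marker and likeness values are not reported here. The 3 integrin, 2 linker and 3 facing genes were taken by symbol. Alternatives used DESeq2 1.42.0, limma 3.58.1, other scalings and filters, a replicate block and each library left out. Figures used matplotlib 3.10.9 in Python 3.11.15.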

Additional observations from a re-analysis of the deposited data

How the results depend on the processing

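Under the alternative scalings, tests and filters, fitted members kept their direction and moved by less than 1 SD, except that with no filter on low counts Ap3m1 stood at 0.26 and Mettl7b at -0.01. As single libraries were left out, the log2 fold change ran from -2.97 to -2.69 for Zyx, -2.61 to -2.41 for Cerkl, -1.60 to -1.27 for Epha1, 0.32 to 0.39 for Ap3m1, 0.22 to 0.67 for Vcl, 0.79 to 1.36 for Itga7, -0.11 to 0.38 for Itgb1 and -0.17 to 0.20 for Mettl7b. Locus sums ran from -1.96 to -1.83 for Zyx and Epha1, -2.45 to -2.26 for Itga4 and Cerkl, 0.32 to 0.39 for Vcl and Ap3m1 and -0.03 to 0.38 for Itga7 and Mettl7b. Over all genes, 183 rises and 255 falls became 93 to 259 and 143 to 359 with 1 library left out (over 1.5 times fewer rises without compound replicate 1, 2 or 3 or DMSO replicate 2, and falls without compound replicate 1 or 2), and 80 and 128 at an adjusted p of 0.01; with no filter, 129 rose and 303 fell. Listed genes gave 1 to 4 rises and 1 to 4 falls with 1 library left out. They gave 1 rise at an adjusted p of 0.01 or a mean count of at least 50. Facing rows gave 2 to 3 rises and 3 to 5 falls with 1 library left out, and 3 falls at 0.01. Same-numbered libraries did not deviate together (correlations -0.01, 0.02 and 0.02). These values, from few libraries and many low-count genes, cannot show whether libraries were paired, and the labels name no pairing. The replicate block gave 197 rises and 245 falls. The cause of these shifts was not tested. Low counts limit Itga4 and Itga7 most.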
